A study of Mus musculus with 5 samples.

Results

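E2f1, E2f2, E2f3, E2f7, E2f8, Foxm1, Mybl1 and Mybl2 are transcription factors of the cell cycle, and their transcripts were followed in hepatocytes of 5 mouse liver libraries. They were taken by name, 8 of the 31053 genes counted, and all 8 had transcripts in the hepatocytes of every library. Each library held dissociated liver cells of C57BL/6J mice captured singly in droplets for RNA sequencing, and each group had 1 library. The adult control came from adult liver. The next 3 groups were mice that lost 2/3 of the liver by surgery at an age of 8 weeks (partial hepatectomy, PHx), with livers taken 24 h, 48 h and 96 h later. The last group was young mice at postnatal day 14 (P14). All cells were released by perfusion and passed through a dead-cell removal kit. The labels give neither sex nor the number of animals. One protocol line counts the adult control among the operated mice, against its title and source, and it was used as the control here. That line is also the source of its age, 8 weeks as for the PHx mice. A code in its description also differs from that of the other 4 libraries, so what lies behind that code cannot be told apart from the control group.

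E2F proteins bind promoters of replication genes. E2f1, E2f2 and E2f3 are the activators of the family and are held inactive by the retinoblastoma protein until cyclin-dependent kinases phosphorylate it, whereas the atypical members E2f7 and E2f8 repress the same genes later in S phase. Mybl2 (B-Myb) joins the MuvB complex and helps to recruit Foxm1, which drives genes of G2 and mitosis, and Mybl1 (A-Myb) is a close relative best known from male germ cells. Hepatocytes of adult liver are mostly quiescent and re-enter the cycle after PHx, while those of young mice divide as the liver grows.

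Hepatocytes were barcodes with at least 5000 unique molecular identifiers (UMIs, each a captured transcript), 10% to 30% mitochondrial UMIs and at least 1% of UMIs from Alb, Apoa1 and Ttr. There were 925 in the control, 1170 at 24 h, 719 at 48 h, 771 at 96 h, with 2106 in P14. Their median depth was 18527, 19562, 35432, 22075 and 38922.5 UMIs in the same order. Free RNA in droplets without cells equalled 0.818% (48 h) to 7.17% (adult control) of the median hepatocyte's UMIs. At most 2 hepatocyte barcodes were shared by any pair of libraries. Hepatocyte markers summed to 39413 to 152825 CPM (UMIs per 1000000 outside mitochondrial genes). Of the cholangiocyte markers, the keratin Krt19 was at 0 in the 4 adult libraries. Sox9 (18, 33.8, 30.7 and 32.3 CPM from control to 96 h) and Spp1 (17.6, 67.9, 14.1 and 156) were detected there. Erythroid markers summed to 124 to 763 CPM. Neutrophil markers summed to 11.2 in the control, 101 at 24 h, 189.7 at 48 h, 21.9 at 96 h, with 27.5 in P14. They were thus highest in the libraries where 7 of the 8 regulators were highest, and their part in the results was not tested. At least 3 markers of some other class had a UMI in 76.9%, 62.9%, 93.9%, 37.2% and 8.74% of hepatocytes from control to P14. Erythroid markers, globin genes among them, reached 3 in 709, 714, 667, 279 and 144 of these 711, 736, 675, 287 and 184 hepatocytes. Neutrophil markers reached 3 in 0, 56, 233, 3 and 10, so most often at 48 h. After thinning to 5000 UMIs, 210, 154, 158, 24 and 18 hepatocytes held at least 3 markers of some other class. The part of these transcripts in the results was not tested beyond leaving such hepatocytes out.

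Levels are given as CPM, the UMIs of a gene summed over the hepatocytes of a library scaled to 1000000 of their UMIs outside the 13 mitochondrial genes. A level compares one gene between libraries, not genes with each other. Ranges in parentheses are exact 95% intervals, Poisson for levels, conditional binomial for folds and Clopper-Pearson for shares of cells. They cover counting error only, because 1 library per group leaves no replicate and so no test. A condition cannot be told apart from its library, and in a summed level fewer transcribing cells cannot be told apart from less RNA per cell.

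**Figure D1:**
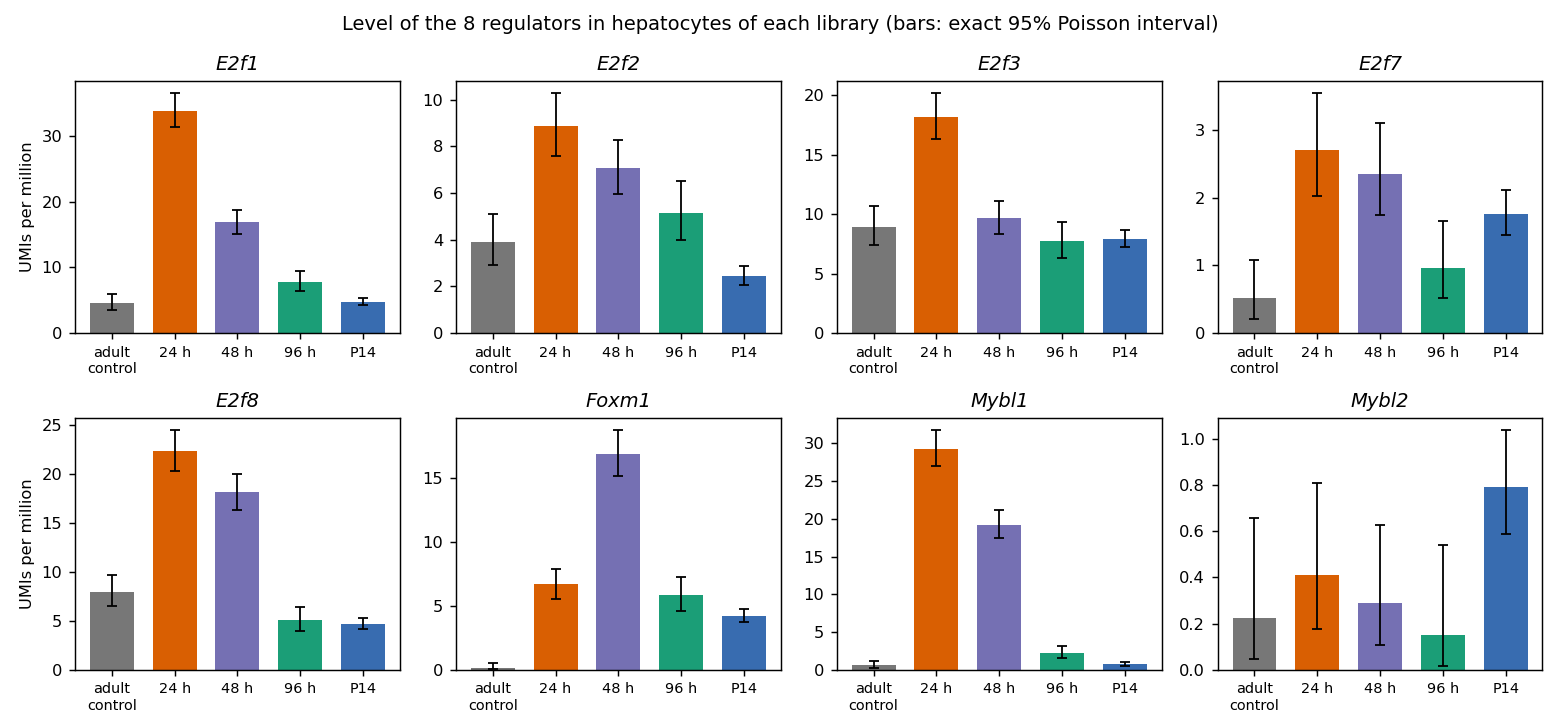
Level of each regulator (CPM, vertical axis starting at 0 and scaled per gene) in the hepatocytes of the 5 libraries, with exact 95% Poisson intervals. E2f1, E2f2, E2f3, E2f7, E2f8 and Mybl1 stand highest at 24 h, Foxm1 at 48 h (16.9 CPM) and Mybl2 in P14 (0.790 CPM).

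E2f1, the activator best known for S phase entry (chr2:154559407-154569892, minus strand), was at 4.58 CPM in control liver, then 33.9 (24 h), 16.8 (48 h) and 7.81 (96 h) after PHx, and 4.79 in P14. It was highest at 24 h, and of neighbours in order of level only P14 and the control had overlapping intervals. The 24 h level was 7.39-fold (5.68 to 9.78) that of the control. Each hepatocyte was also thinned to 5000 UMIs, so that depth did not set the share of cells with a UMI. Then 2.05% of control hepatocytes had E2f1 (1.24% to 3.19%), 10.6% at 24 h (8.89% to 12.5%), 6.12% at 48 h, 2.98% at 96 h, with 2.04% in P14. Without thinning the shares were 5.73%, 31.8%, 31.4%, 11.0% and 9.73%.

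E2f2 (chr4:136172394-136196057, plus strand), also an activator, was at 3.90 CPM in control liver, then 8.86 (24 h), 7.06 (48 h) and 5.13 (96 h) after PHx, and 2.45 in P14. Neighbours in order of level had overlapping intervals except the lowest pair, the control and P14. The 24 h level was 2.27-fold (1.66 to 3.16) that of the control. Without hepatocytes with 3 markers of another class, which left 44 at 48 h and 214 in the control, E2f2 was at 3.50 CPM at 48 h and 4.25 in the control, and their log2 ratio turned from 0.72 to -0.22.

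E2f3 (chr13:29906575-29986063, minus strand), the third activator, was at 8.94 CPM in control liver, then 18.2 (24 h), 9.65 (48 h) and 7.74 (96 h) after PHx, and 7.91 in P14. It stood apart at 24 h alone, since among the other 4 libraries each interval overlapped the next. At 24 h it was 2.04-fold (1.65 to 2.53) the control, and at 48 h 1.08-fold (0.856 to 1.37).

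The atypical repressor E2f7 (chr10:110745439-110787384, plus strand) was scarce, with 7 UMIs in all control hepatocytes. It was at 0.526 CPM in control liver, then 2.72 (24 h), 2.35 (48 h) and 0.967 (96 h) after PHx, and 1.77 in P14, and each library's interval overlapped the next in order. At 24 h it was 5.17-fold (2.34 to 13.5) the control. An antisense gene, 1700020G17Rik, shares 86 exonic bases with it, and whether counting used strand is not given in the sources used here.

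E2f8 (chr7:48866429-48881596, minus strand), the other atypical repressor, was at 7.96 CPM in control liver, then 22.3 (24 h), 18.1 (48 h) and 5.06 (96 h) after PHx, and 4.68 in P14. The 24 h and 48 h libraries were above the control, whose interval lay in turn above those of 96 h and P14. E2f8 was 2.80-fold (2.26 to 3.50) the control at 24 h, and 0.636-fold (0.462 to 0.870) at 96 h. An antisense transcript in the annotation, Gm2788, shares 610 exonic bases with E2f8.

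Promoter stretches of E2f3, E2f7 and E2f8 are shown because these members were all highest at 24 h and hold letters that E2F proteins are known to bind. Each line gives the 250 bases before a transcription start in the RefSeq promoter table (GRCm38.p6, the assembly also called mm10), 5′ to 3′ on the gene's strand and outside annotated exons. Capitals mark the letters TTCCCGC, the letters TTCGCGC, the letters TTGCCGC and the letters TTGGCGC on either strand.
E2f3 (chr13:29986064-29986313, minus strand): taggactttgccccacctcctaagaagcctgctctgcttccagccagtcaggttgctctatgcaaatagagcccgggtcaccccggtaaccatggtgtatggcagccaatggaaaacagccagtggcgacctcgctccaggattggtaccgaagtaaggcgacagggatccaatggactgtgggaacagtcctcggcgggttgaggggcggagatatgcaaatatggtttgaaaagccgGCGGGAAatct
E2f7 (chr10:110745189-110745438, plus strand): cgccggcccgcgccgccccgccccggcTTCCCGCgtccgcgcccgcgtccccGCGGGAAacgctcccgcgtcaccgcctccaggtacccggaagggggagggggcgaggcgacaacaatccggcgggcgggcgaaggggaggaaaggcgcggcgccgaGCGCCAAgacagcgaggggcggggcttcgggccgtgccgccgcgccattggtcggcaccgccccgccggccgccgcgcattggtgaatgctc
E2f8 (chr7:48881597-48881846, minus strand): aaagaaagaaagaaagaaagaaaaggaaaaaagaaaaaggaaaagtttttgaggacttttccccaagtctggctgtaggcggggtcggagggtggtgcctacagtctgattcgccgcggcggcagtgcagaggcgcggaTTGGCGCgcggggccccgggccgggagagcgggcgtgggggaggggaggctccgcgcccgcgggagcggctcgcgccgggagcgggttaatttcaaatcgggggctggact
E2f7 held 3 matches and E2f3 and E2f8 held 1 each. Of 32851 RefSeq windows of this length, 7.89% held at least 1. The stretches shown were picked for holding the letters, so this share describes and supports nothing. In E2f8 the match overlaps CCAAT letters on the other strand. The windows of the other E2f3 start, both E2f2 starts, Mybl2 and E2f1 (the last within an E2f1 exon of GENCODE M21) had no such letters. E2f1 and E2f2 were also highest at 24 h. The E2f1 window lies inside the gene, so the bases before the gene were not read. Only these exact letters were searched, so no match does not mean no E2F site. Foxm1 and Mybl1 were not matched in the table. A match is a stretch of letters, and binding was not measured.

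Foxm1 (chr6:128362967-128376146, plus strand), the activator of mitotic genes, was at 0.150 CPM in control liver, then 6.66 (24 h), 16.9 (48 h) and 5.80 (96 h) after PHx, and 4.20 in P14. The control level rested on 2 UMIs in 925 hepatocytes, of which free RNA could account for 18.5%, against at most 7.94% for any other member and library. Foxm1 was the one regulator highest at 48 h, and its interval there (15.2 to 18.8) lay above that of every other library. The 48 h level was 2.54-fold (2.07 to 3.13) that at 24 h. The ratio of 48 h to the control was 113, with a counting interval of 30.9 to 933. After thinning, 0.216% of control hepatocytes had Foxm1, 2.39% at 24 h (1.60% to 3.44%), 3.34% at 48 h (2.15% to 4.93%), 1.69% at 96 h, with 1.95% in P14. The 24 h and 48 h shares therefore had overlapping intervals at equal depth. Foxm1 shares 144 exonic bases with Tex52 and 97 with Gm44596 on the same strand, where counting could split reads.

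Mybl1 (chr1:9667415-9700209, minus strand) was at 0.601 CPM in control liver, then 29.3 (24 h), 19.2 (48 h) and 2.23 (96 h) after PHx, and 0.743 in P14. The 24 h and 48 h libraries were far above the other 3, and the control and P14 intervals overlapped. At 24 h Mybl1 was 48.8-fold (24.6 to 114) the control, from 572 UMIs against 8, and at 96 h 0.116-fold (0.0772 to 0.168) the 48 h level. Thinned shares were 0.108% in the control, 8.97% at 24 h, 6.12% at 48 h, 1.04% at 96 h, with 0.427% in P14.

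Mybl2 (chr2:163054687-163084688, plus strand) was close to the limit of detection in hepatocytes, with 3 UMIs in the control, 8 at 24 h, 6 at 48 h, 2 at 96 h, with 51 in P14. It was at 0.225 CPM in control liver, then 0.410 (24 h), 0.288 (48 h) and 0.149 (96 h) after PHx, and 0.790 in P14. P14 was highest, but its interval (0.588 to 1.04) overlapped those of 24 h, 48 h (0.106 to 0.627) and the control (0.0465 to 0.658). The ratio of 24 h to the control was 1.82 (0.437 to 10.6), so a difference was not detectable at this depth. After thinning, 0 of 925 control hepatocytes had a Mybl2 UMI, which allows a share of cells with a UMI at this depth of up to 0.324%, taken as 3 cells of the total.

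**Figure D2:**
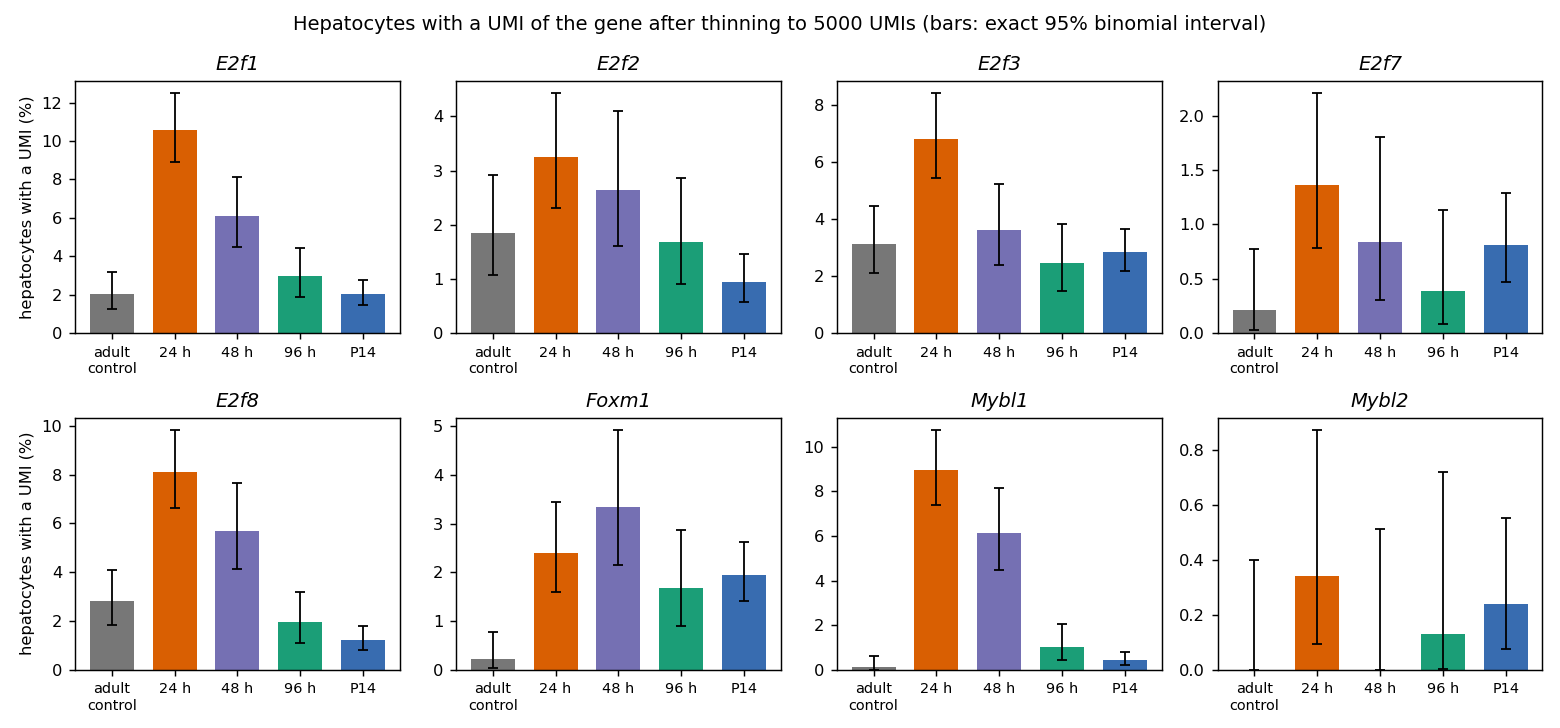
Share of hepatocytes with at least 1 UMI of each regulator after thinning every hepatocyte to 5000 UMIs (vertical axis in percent, starting at 0 and scaled per gene), by library, with exact 95% binomial intervals. E2f1 and Mybl1 reach 10.6% and 8.97% at 24 h, and Foxm1 reaches 3.34% at 48 h with an interval that overlaps that of 24 h.

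The order of peaks was thus 6 regulators at 24 h, 1 at 48 h (Foxm1), 1 in P14 (Mybl2) and 0 in the control or at 96 h. For E2f2 and E2f7 the 24 h and 48 h intervals overlapped, so the place of their peak was not resolved between these libraries. The E2f7 interval in P14 overlapped both as well, and E2f7 was highest in P14 with hepatocytes of 10000 to 30000 UMIs or with 5% of UMIs from Alb, Apoa1 and Ttr, and at 48 h with 10% to 20% mitochondrial UMIs. The Mybl2 peak was not resolved from 24 h, 48 h or the control, and stood at 24 h after thinning and with 10% to 20% mitochondrial UMIs. At equal depth, 9.62% of control hepatocytes had a UMI of at least 1 of the 8 regulators, against 31.9% at 24 h, 23.1% at 48 h, 10.4% at 96 h, with 8.83% in P14. E2f1 and E2f8 shared 23 hepatocytes at 24 h, 18.5% of the 124 with E2f1 and 24.2% of the 95 with E2f8. This was the pair with the most shared hepatocytes at 24 h and need not stand for the others. Over all hepatocytes of that library the shares were 10.6% with E2f1 and 8.12% with E2f8.

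To read these differences against the rest of the transcriptome, ratios were taken as log2 of (CPM + 1) over (CPM + 1) for genes that reached 5 CPM in one or both libraries, and a gene was called at a difference of 2-fold. This scale understates the change of low genes, and members that met the minimum through their high library alone had to differ, so the counts describe and support nothing. For 24 h over the control, 5 of 6 regulators that met the minimum were called higher and 0 lower, where 8.51% of 9028 genes were higher and 7.13% lower. E2f3 missed the call at a log2 ratio of 0.95 and E2f2 made it at 1.01. The E2f2 call was lost after thinning (8.51 against 5.18 CPM) and without hepatocytes with 3 markers of another class (9.23 against 4.25). E2f3 was called instead in these settings, at 19.0 against 8.64 CPM and 16.1 against 5.80. With a pseudocount of 10 CPM E2f2 was also not called. The same held narrowly with free RNA subtracted, CPM over all UMIs or at least 2000 UMIs. E2f3 was also called with 10000 to 30000 UMIs, without the 5% of hepatocytes of most UMIs and with a pseudocount of 0.1 CPM. At 24 h the median of the 6 regulators that met the minimum was a log2 ratio of 2.01, and that of all genes -0.00086. E2f7 (1.28) and Mybl2 (0.20) were under the minimum and left out, so this median too describes and supports nothing. For 48 h over the same control, 4 of 6 were higher (E2f1, E2f8, Foxm1 and Mybl1) and 0 lower, with 8.3% of all genes higher and 7.63% lower. For 96 h, 1 of 5 was higher, Foxm1 at a log2 ratio of 2.56, with 4.07% of genes higher and 1.88% lower. Foxm1 met the minimum narrowly, at 5.80 CPM. It fell below the minimum, and so out of the count, at 4.80 CPM with 5% to 40% mitochondrial UMIs, 4.35 with CPM over all UMIs and 4.81 with the mean of each cell's CPM, while its log2 ratio was 2.30, 2.26 and 2.16. It did so too at 4.29 CPM without hepatocytes with 3 markers of another class, 4.89 with 10000 to 30000 UMIs and 3.08 with 5% of UMIs from Alb, Apoa1 and Ttr, at log2 ratios of 2.40, 2.42 and 2.03. With 10% to 20% mitochondrial UMIs the 53 hepatocytes left at 96 h had no Foxm1 UMI, and with a pseudocount of 10 CPM its log2 ratio was 0.64. E2f1 was called higher in its place with 10% to 20% mitochondrial UMIs (10.6 against 3.30 CPM). It was also called with 10000 to 30000 UMIs (8.26 against 3.45) and without hepatocytes with 3 markers of another class (8.07 against 2.71). The same held with 5% of UMIs from Alb, Apoa1 and Ttr (6.26 against 0). For P14, 0 of 2 were called, with 7.89% of genes higher and 13.8% lower. Foxm1, at 4.20 CPM in P14, was under the minimum, with a log2 ratio of 2.18 over the control. It was called with no minimum, with 10000 to 30000 UMIs (2.45) and after thinning (1.94). The split of all genes turned over with TMM scaling factors (1.07 for the control and 0.842 for P14), from 711 genes higher and 1247 lower to 1167 and 697. These 4 comparisons share the control library.

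Foxm1 was also the 1 regulator of 6 called higher at 48 h than at 24 h, at a log2 ratio of 1.22, where 1.78% of genes were higher and 1.76% lower. That call was lost after thinning, at a log2 ratio of 0.44, and without hepatocytes that held 3 markers of another cell class, at 0.93 with 44 hepatocytes left at 48 h. It was also lost with a pseudocount of 10 CPM, at 0.69, and narrowly with hepatocytes of 10000 to 30000 UMIs in both libraries. From 48 h to 96 h, 4 of 6 regulators were called lower (E2f1, E2f8, Foxm1 and Mybl1, at -1.02, -1.66, -1.40 and -2.65), where 4.38% of all genes were higher and 4.24% lower. After thinning the calls of Foxm1, at -0.71, and E2f1, at -0.99, were lost. With a pseudocount of 10 CPM only Mybl1 was called, at -1.26, and E2f1 was also not called with 10000 to 30000 UMIs, at -0.77, or with 10% to 20% mitochondrial UMIs, at -0.51. E2f1 narrowly missed the call with 5% to 40% mitochondrial UMIs (16.8 to 7.99 CPM). It also did so without the 5% of hepatocytes of most UMIs (17.1 to 8.33) and with the mean of each cell's CPM (16.4 to 7.71). Asking for 5% of UMIs from Alb, Apoa1 and Ttr left 6 hepatocytes at 24 h and 2 at 48 h. With those 2 cells, the ratios of E2f1, E2f8 and Foxm1 from 48 h to 96 h and of E2f8 at 48 h over the control turned direction. Ratios that had not been called turned as well, E2f2 and E2f3 from 48 h to 96 h to 2.30 and 3.16, and, with 6 cells at 24 h, E2f3 over the control to -2.93.

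**Figure D3:**
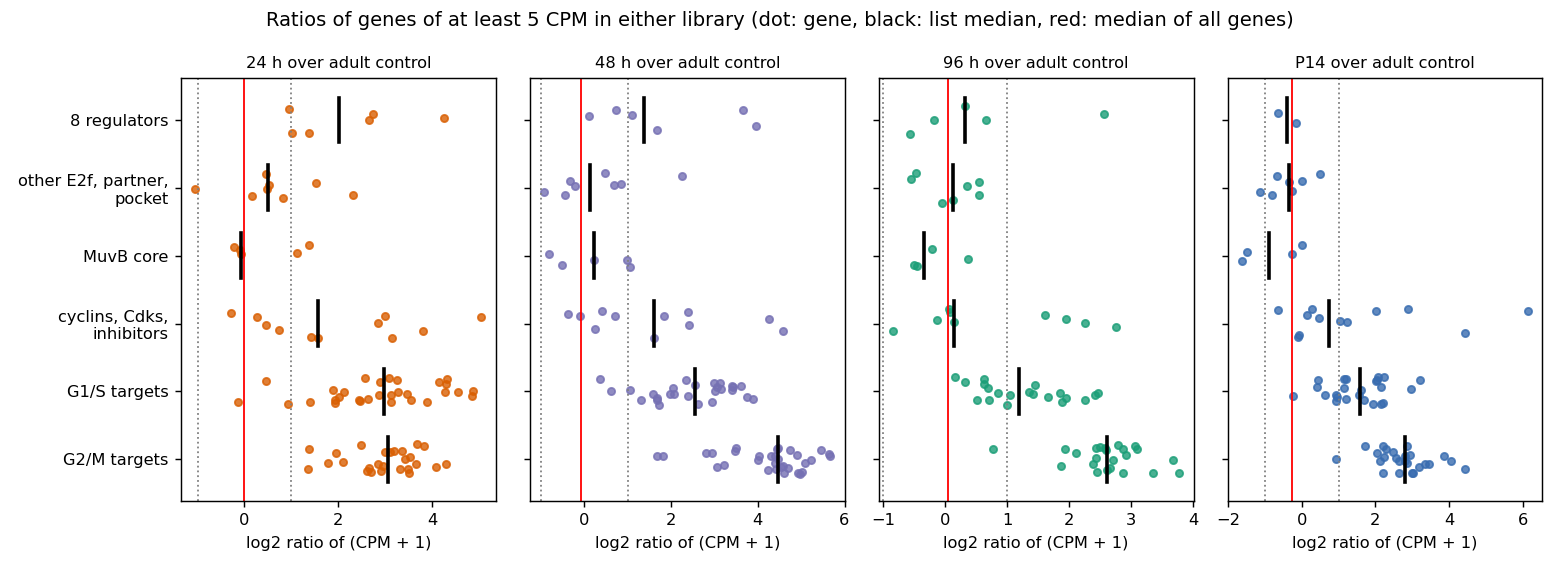
Log2 ratio of (CPM + 1) over the adult control (horizontal axis) for the 8 regulators and 5 lists of related genes, for genes that reached 5 CPM in one or both libraries; dots are genes, black bars list medians, red lines the median of all genes and dotted lines the 2-fold limits. The median of the regulators that reached 5 CPM stands at 2.01 at 24 h (6 genes), 1.38 at 48 h (6) and 0.32 at 96 h (5). The G2/M list is farthest right at 48 h.

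Of the 8 other E2f genes, dimer partners and pocket proteins, 2 were called higher at 24 h than in the control and 1 lower, with a median log2 ratio of 0.51. Of all genes, 8.51% were higher and 7.13% lower. Tfdp1, which encodes a dimer partner of E2F proteins, was at 14.7 CPM in the control and 43.9 at 24 h. Rbl1, the p107 pocket protein, was at 1.43 CPM in the control, 11.0 at 24 h and 10.6 at 48 h. Rbl2, the p130 pocket protein of quiescent cells, went the other way, with 31.2, 14.6 and 15.9 CPM. Rb1 was within 2-fold of the control at 24 h, at a log2 ratio of 0.45. Of the 5 MuvB core genes, Lin9 and Lin54 were called higher at 24 h (1.12 and 1.38) and the others were within 2-fold.

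Of 11 cyclin, Cdk and inhibitor genes that met the minimum, 7 were called higher at 24 h and 6 of 11 at 48 h, with 0 lower at either time. Of all genes, 8.51% were higher at 24 h and 8.3% at 48 h. Ccne1, Ccne2, Ccna2 and Cdkn1a met the minimum through the PHx library alone, so these counts describe and support nothing. Ccnd1, the D-type cyclin that starts the phosphorylation of the retinoblastoma protein, was at 25.5 CPM in the control, 369 at 24 h, 141 at 48 h, 101 at 96 h, with 106 in P14. The E-type cyclins Ccne1 and Ccne2 were highest at 24 h like E2f1, with 23.3 and 23.0 CPM against 9.41 and 8.74 at 48 h. Ccna2, a cyclin of S phase and G2, was highest at 48 h like Foxm1, at 45.5 CPM against 18.2 at 24 h. The Cdk inhibitor gene Cdkn1a was at 2.25 CPM in the control and 107 at 24 h, and Cdkn1c was at 107 CPM in P14 and at most 2.90 in the adult libraries.

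Genes that E2F proteins and Foxm1 are known to act on were read as 2 lists that hold none of the 8 regulators. Of 30 G1/S genes, 27 were called higher at 24 h than in the control, with a median log2 ratio of 2.98, and the list summed to 1243 CPM at 24 h and 827 at 48 h. Of the G2/M genes that met the minimum, 26 of 26 were called higher at 24 h and 32 of 32 at 48 h, and the list summed to 627 and 1758 CPM. Of all genes, 8.51% were higher at 24 h and 8.3% at 48 h. In the control, only Cenpa (5.93 CPM) and Cks2 (39.2) of the G2/M list reached 5 CPM. Many genes of both lists met the minimum through the PHx library alone and had to differ. Their counts and medians over the control therefore describe and support nothing. From 24 h to 48 h, 27 of 32 G2/M genes were called higher, while 1 of 30 G1/S genes was higher and 6 were lower. Of all genes, 1.78% were higher and 1.76% lower between these libraries. Mcm6, a subunit of the replicative helicase, was at 116 CPM at 24 h and 59.7 at 48 h, and Ube2c, a ubiquitin-conjugating enzyme of mitotic exit, at 51.5 and 188.

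Hepatocytes were then split within each library by whether, after thinning, at least 3 genes of the G1/S list (replication) or of the G2/M list (mitosis) had a UMI. Replication alone marked 24, 459, 115, 46 and 209 hepatocytes in the control, 24 h, 48 h, 96 h and P14. Both lists marked 4, 193, 172, 41 and 174, and mitosis alone 1, 15, 138, 39 and 103. The other 896, 503, 294, 645 and 1620 met neither rule. That class can still hold up to 2 genes of each list, and replication-only cells up to 2 of the mitosis list. These are ranges of a count and not cell types: at 24 h, 163 hepatocytes had 2 replication genes and 138 had 3.

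Foxm1 was concentrated in hepatocytes that met the mitosis rule, alone or with the replication rule (mitosis cells). These had 25.8 CPM of Foxm1 at 24 h, 32.1 at 48 h, 36.0 at 96 h, with 29.3 in P14, and those of neither class had 0.631, 1.17, 1.10 and 0.575. Mitosis cells were 17.8%, 43.1%, 10.4% and 13.2% of the hepatocytes of these libraries and held 106 of 130, 327 of 352, 62 of 78 and 237 of 271 Foxm1 UMIs. Within mitosis cells, the 48 h level was 1.24-fold (0.996 to 1.56) that at 24 h, and P14 was 0.910-fold (0.767 to 1.08) the 48 h level. Both intervals include 1, so a difference in CPM was not detectable in the pooled mitosis cells at this depth. The 2 classes pooled there differed more between libraries. Cells that met both rules had 25.2, 37.8, 47.1 and 40.9 CPM of Foxm1 at 24 h, 48 h, 96 h and P14. Mitosis-only cells had 34.4 (from 10 UMIs), 24.6, 24.6 and 8.83. Of the mitosis cells, 193 of 208 met both rules at 24 h and 172 of 310 at 48 h. The median mitosis cell had 23866.5 UMIs at 24 h and 41820 at 48 h, and CPM is scaled for this. Replication-only cells had 2.54, 5.45, 5.09 and 0.834 CPM in the same order.

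**Figure D4:**
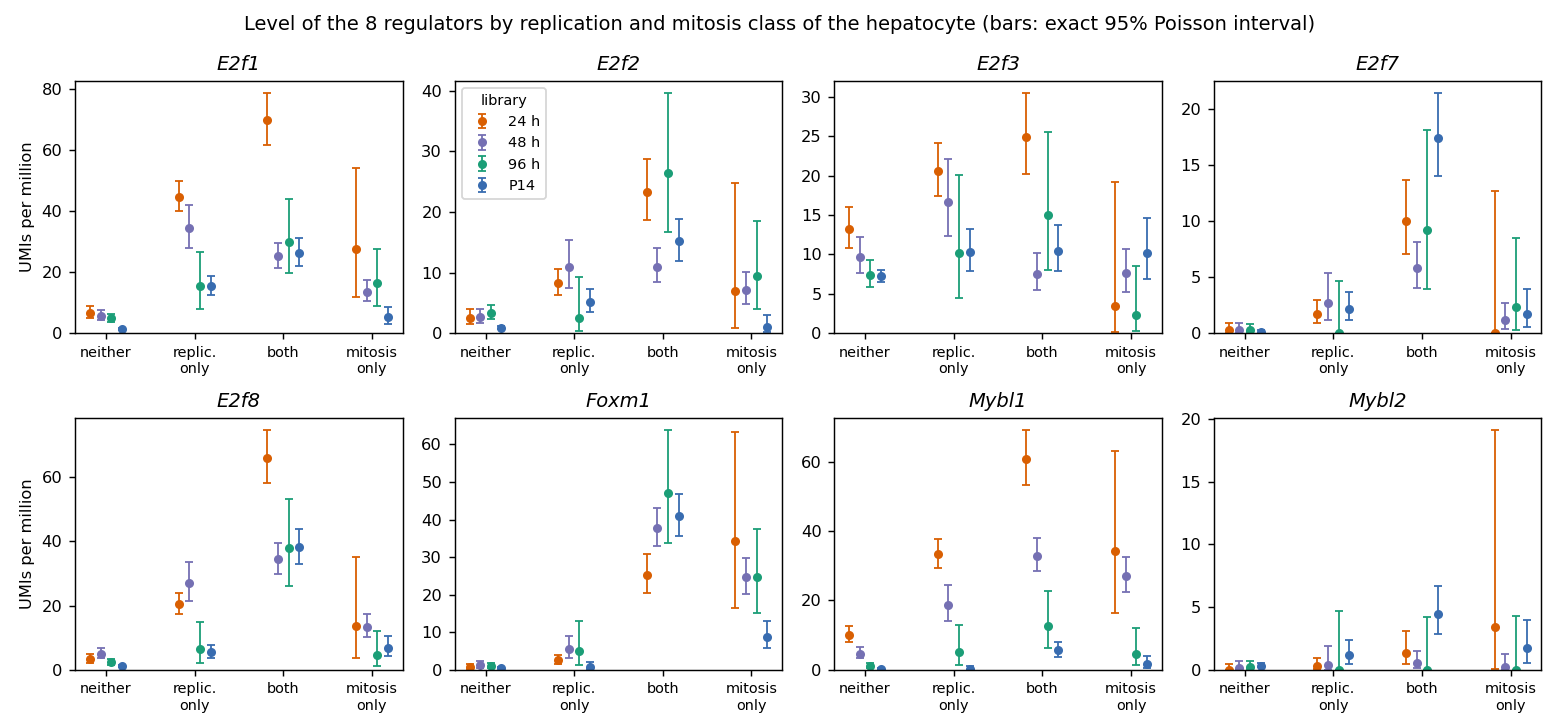
Level of each regulator (CPM, axis starting at 0 and scaled per gene) in hepatocytes that met neither rule (under 3 genes of each list), the replication rule only, both, or the mitosis rule only, for 24 h, 48 h, 96 h and P14, with exact 95% Poisson intervals. Foxm1 is highest in the 2 classes that met the mitosis rule in all 4 libraries, and Mybl1 in P14 reaches 5.62 CPM at most, against 60.9 at 24 h.

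E2f1 was higher in replication-only hepatocytes than in those of neither class. Replication-only cells had 44.6, 34.4, 15.3 and 15.3 CPM of E2f1 at 24 h, 48 h, 96 h and P14, against 6.68, 5.70, 4.85 and 1.31 in hepatocytes of neither class. Those that met both rules had 69.8, 25.2, 29.9 and 26.4 CPM. Mitosis cells were 1.50-fold (1.27 to 1.76) the replication-only level at 24 h and 0.588-fold (0.462 to 0.754) at 48 h. At 24 h, 193 of the 208 mitosis cells also met the replication rule, and at 48 h 172 of 310 did.

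E2f7 and E2f8, the repressors, had their highest level in hepatocytes that met both rules at 24 h, 48 h, 96 h and in P14, and so did E2f2 and Mybl1. So did E2f1 and E2f3 except at 48 h, and Foxm1 except at 24 h. For E2f3 in P14 the margin was narrow, at 10.5 CPM against 10.3 in replication-only cells. At 24 h, E2f7 was at 9.97 CPM in cells that met both, 1.74 in replication-only cells and 0.252 in neither, and in P14 at 17.5, 2.17 and 0.119. E2f8 was at 66.1, 20.4 and 3.28 CPM in these classes at 24 h and at 38.2, 5.50 and 1.03 in P14. E2f2 was at 23.4, 8.28 and 2.52 CPM at 24 h, but at 48 h at 11.0 and 10.9 in the first 2 classes, with overlapping intervals, and its intervals for both rules and mitosis only overlapped at 24 h, 48 h and 96 h. Mybl1 was at 60.9, 32.9, 12.6 and 5.62 CPM in cells that met both rules at 24 h, 48 h, 96 h and P14, against 34.4, 27.2, 4.68 and 1.70 in mitosis-only and 33.4, 18.7, 5.09 and 0.333 in replication-only cells. The interval for both rules overlapped that of at least 1 other class at 24 h, 48 h and 96 h for E2f7, in all 4 libraries for Mybl1 and at 48 h for E2f8. E2f3 spread less, with 24.9, 20.6 and 13.2 CPM at 24 h. At 48 h its order differed, with 7.55, 16.7 and 9.71 CPM, and mitosis cells were 0.453-fold (0.313 to 0.663) the replication-only level.

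E2f8 had another order in hepatocytes of neither class. There it was at 7.51 CPM in the control, 3.28 at 24 h, 5.05 at 48 h, 2.38 at 96 h, with 1.03 in P14. The control was the highest, and 24 h was 0.437-fold (0.272 to 0.679), 96 h 0.317-fold (0.197 to 0.493) and P14 0.137-fold (0.0961 to 0.194) its level. The summed E2f8 level at 24 h was thus above the control while its level in these hepatocytes was below it. Free RNA held 6.88 CPM of E2f8 in the control and 13.2 at 24 h and could account for 8.41% and 16.9% of its UMIs in these hepatocytes. Its part in this order was not tested. E2f2 and E2f7 were also highest in the control in these hepatocytes. From control to P14, E2f2 was at 3.87, 2.52, 2.59, 3.29 and 0.911 CPM. E2f7 was at 0.387, 0.252, 0.259, 0.275 and 0.119 CPM, from 5 UMIs in the control.

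Mybl1 at 24 h was also above the control in hepatocytes of neither class. There it was at 0.464 CPM in the control (6 UMIs) and 10.1 at 24 h (80 UMIs), 21.7-fold (9.56 to 61.0). In the 113 hepatocytes at 24 h with no gene of either list, a class added after the values were seen, it was at 5.78 CPM from 11 UMIs, against 1 UMI in 375 such control hepatocytes. E2f1 in the same cells was at 5.78 and 3.54 CPM, a ratio of 1.63-fold (0.702 to 3.61). Free RNA held 16.9 CPM of Mybl1 at 24 h and could account for 2.30% of its UMIs over all hepatocytes of that library, 7.06% of those in neither class and 11.5% of those in cells with no gene of either list.

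P14 mitosis cells had little Mybl1. Mitosis cells had 59.0 CPM at 24 h, 30.5 at 48 h, 8.70 at 96 h, with 4.20 in P14. The P14 level was 0.138-fold (0.0937 to 0.197) that at 48 h and 0.0711-fold (0.0481 to 0.102) that at 24 h, whereas for Foxm1 in the same cells the ratio of P14 to 24 h was 1.13-fold (0.896 to 1.44). Mybl2 had its most UMIs in P14 mitosis cells, 28 against 6 at 24 h, 4 at 48 h and 0 at 96 h, and its P14 level of 3.46 CPM was 8.79-fold (3.07 to 34.5) that at 48 h and 2.36-fold (0.960 to 6.98) that at 24 h, the last an interval that includes 1.

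Zonation, the division of labour between hepatocytes near the portal vein and near the central vein, was read from a score. Hepatocytes of each library were cut into 3 equal parts by the share of pericentral UMIs among pericentral and periportal ones after thinning. At 24 h E2f8 was at 15.4 CPM in the periportal part, 17.4 in the middle and 35.3 in the pericentral part, 2.30-fold (1.81 to 2.94) from end to end. E2f1 was at 27.2, 33.3 and 41.9 CPM and Foxm1 at 4.13, 7.66 and 8.38 in the same order. At 96 h E2f1 was at 4.13, 7.02 and 11.4, E2f8 at 1.55, 3.51 and 9.19 and Foxm1 at 2.84, 3.95 and 9.79. These 3 genes stood highest in the pericentral part at both times. The middle and pericentral intervals overlapped for E2f1 at both times and for Foxm1 at 24 h. E2f1 was also highest there in the control, at 2.86, 3.60 and 7.16 CPM, 2.50-fold (1.28 to 5.18) from end to end, against 1.54-fold (1.27 to 1.87) at 24 h. At 48 h Foxm1 was at 15.9, 14.1 and 20.7 CPM, 1.30-fold (1.01 to 1.69) from end to end. In that library the fold from end to end was 0.856-fold (0.662 to 1.11) for E2f1, 0.910-fold (0.708 to 1.17) for Mybl1 and 1.54-fold (1.19 to 2.00) for E2f8.

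In P14 the periportal part was the highest for Foxm1, at 5.75, 4.08 and 2.79 CPM, and for E2f1, at 5.98, 4.52 and 3.87. E2f8 was not, at 4.32, 4.57 and 5.13 CPM and 1.19-fold (0.895 to 1.58) from end to end. The share of mitosis cells was 9.74%, 18.7% and 24.9% of the periportal, middle and pericentral parts at 24 h, 45.4%, 42.5% and 41.4% at 48 h, 3.89%, 9.34% and 17.9% at 96 h, with 15.7%, 14.5% and 9.26% in P14. It moved with the Foxm1 levels at 24 h, 96 h and in P14, and its part in them was not tested. At 48 h it did not, being lowest in the pericentral part, where Foxm1 was highest. The share of hepatocytes that met the replication rule was 41.0%, 61.0% and 65.1% of these parts at 24 h, 37.5%, 39.6% and 42.7% at 48 h, 7.39%, 8.95% and 17.5% at 96 h, with 20.8%, 18.7% and 15.1% in P14. It moved with the E2f1 and E2f8 levels at 24 h and 96 h and with E2f1 in P14, and its part in them was not tested. At 48 h it moved with E2f8, at 14.4, 17.5 and 22.3 CPM, but not with E2f1, at 19.3, 14.6 and 16.6 CPM. Median depth at 96 h was 19375, 22574 and 26035 UMIs in the 3 parts. The zone genes themselves can differ between libraries, so a part in one library need not be the same place in the lobule as in another.

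**Figure D5:**
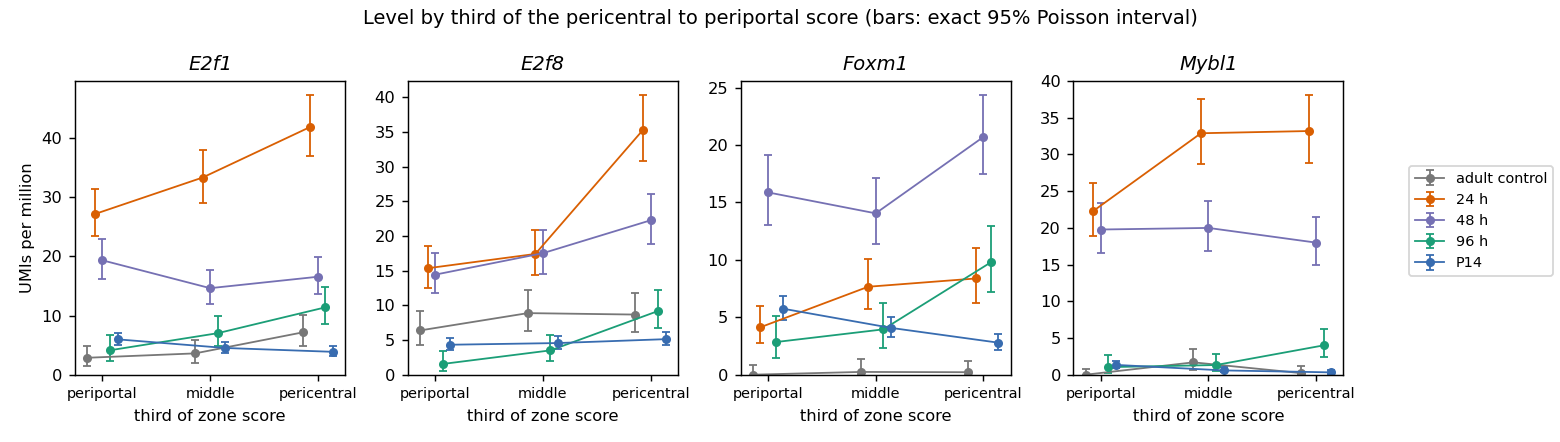
Level of E2f1, E2f8, Foxm1 and Mybl1 (CPM, vertical axis starting at 0 and scaled per gene) in the periportal, middle and pericentral part of the hepatocytes of each library, with exact 95% Poisson intervals. At 24 h and 96 h the pericentral part is highest for all 4 genes. Mybl1 at 24 h is nearly equal, at 32.9 CPM in the middle and 33.2 in the pericentral part. Middle and pericentral intervals overlap for E2f1 and Mybl1 at both times and for Foxm1 at 24 h. In P14 Foxm1 goes from 5.75 to 2.79 CPM.

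Other liver cells in the same libraries were barcodes of at least 2000 UMIs and under 10% mitochondrial UMIs with at least 3 markers of a class, taken by gates and not by clusters. E2f2 was at 105 CPM in 73 B-marker barcodes and 129 in 24 erythroid-marker barcodes of P14, against 2.45 in P14 hepatocytes. Mybl2 was at 37.4 CPM in the B-marker barcodes of P14 (54 UMIs) and 24.1 in 73 monocyte or dendritic-marker barcodes at 24 h (23 UMIs). Mybl2 was thus detectable in these libraries outside hepatocytes. Mybl1 was low there at 24 h, at 2.59 CPM in 157 neutrophil-marker, 2.38 in 215 T or NK-marker and 0 in the monocyte or dendritic-marker barcodes, against 29.3 in hepatocytes.

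Genes with the most similar course were found by dividing each gene's 5 levels by their sum. Likeness is the sum over the 5 libraries of the smaller of the paired shares, so that identical courses give 1, among 6056 genes of at least 20 CPM in a library. E2f1 was nearest to Dnmt1 (0.963), E2f2 to Cse1l (0.983), E2f3 to Nup155 (0.986) and E2f7 to Hat1 (0.959). Foxm1 was nearest to Diaph3 (0.973), then Nek2 and Racgap1 of the G2/M list. E2f8 was nearest to Gm7694 (0.992), which shares exonic bases with Nos1ap. Mybl1 was nearest to Lcn2 (0.973), whose product is an acute phase protein, at 72.3 CPM in the control, 4874 at 24 h, 3307 at 48 h, 229 at 96 h, with 51.3 in P14. Mybl2 was nearest to Nr1i3 (0.972), a description that rests on few UMIs. The course of E2f7 also rests on few, with 7 UMIs in the control and 13 at 96 h.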

How the data were processed

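The 5 matrices hold deposited UMI counts per gene and barcode. Per the file headers they were written by software version 3.0.2, and the submitters' processing notes name bcl2fastq 2.17.1.14, Cell Ranger, Seurat 3.1 and mm10. No correction for free RNA or doublets is given in the sources used here. The 8 members, the related gene lists and the markers were chosen with earlier results of these data known. Hepatocytes were taken by the thresholds given above, with no doublet caller, and counts were summed per library and divided by UMIs outside mitochondrial genes. Other genes are named from the lists by their peak or call and from likeness by rank, and some of those printed were chosen after their values were seen. Library totals ran from 80927744 to 136110607 UMIs. Intervals cover counting error only. With 1 library per group no test across genes was run, so differences compare libraries. Thinning drew 5000 UMIs per hepatocyte with a fixed seed. The ratio and interval code was tested on simulated data. Coordinates are from GENCODE M21 (GRCm38). Python 3.11.15, numpy 2.4.6, scipy 1.17.1, pandas 2.3.3, matplotlib 3.10.9, R 4.3.3 and edgeR 4.0.16 (TMM factors alone) were used. Alternatives changed the cell thresholds, doublet-like cells, scaling, pseudocount, minimum level, thinning, class and zone rules.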

Additional observations from a re-analysis of the deposited data

Results flagged for a closer look

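Foxm1 differed in direction along the zone score between libraries. The pericentral part was at 2.03 times the periportal level at 24 h and at 3.45 times at 96 h, with 1.30 times at 48 h, against 0.485 times in P14. Mybl1 was at 3.87 times at 96 h, from 20 and 4 UMIs, against 0.236 times in P14, from 7 and 29 UMIs. These values stood out because the same contrast was at least 2-fold one way in one library and at least 2-fold the other way in another. The difference between libraries was not tested, since each group has 1 library.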

How the results depend on the processing

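No paired analysis was possible because each group has 1 library and no test was run. One choice was changed at a time. Of the counts of genes, regulators and peaks, 379 stayed within 1.5 times and 70 moved. A count that stayed can rest on other regulators. Over the control, E2f1 took the place of Foxm1 at 96 h and E2f3 that of E2f2 at 24 h in some settings. E2f1, E2f2, E2f8 and Mybl1 were highest at 24 h in all 13 settings that could move a peak, and Foxm1 was highest at 48 h in those settings except with at least 5% of UMIs from hepatocyte markers. Of 768 log2 ratios of single regulators, 80 moved (42 up, 38 down) and 4 called ones reversed. Counting ratios that were never called, 38 took the other sign, of which 19 with at least 5% of UMIs from Alb, Apoa1 and Ttr and 7, E2f2 at 48 h over the control among them, without hepatocytes with 3 markers of another class. Of the other single values, 35 shares of cells were higher without thinning, 5 ratios of mitosis over neither class were lower with at least 5 genes of a list and 1 zone ratio was lower with 2 equal parts in place of 3. Where 0 regulators are given as higher for 96 h over the control, Foxm1 had fallen below the minimum of 5 CPM at log2 ratios of 2.30 (5% to 40% mitochondrial UMIs), 2.26 (CPM over all UMIs) and 2.16 (mean of each cell's CPM), or its ratio was 0.64 (pseudocount of 10 CPM). The counts that moved and the called ratios that reversed follow, and the cause was not tested. With 5% to 40% mitochondrial UMIs the values were 0 regulators higher for 96 h over the control. With 10% to 20% mitochondrial UMIs the values were 714 genes higher, 1 regulator lower, 694 genes lower for 96 h over the control and 249 genes higher, 1 regulator lower for 48 h over 24 h. It also gave 612 genes higher, 702 genes lower for 96 h over 48 h and 2 peaks in 48 h and 0 in P14. Asking for at least 5% of UMIs from Alb, Apoa1 and Ttr left 47, 6, 2, 545 and 2106 hepatocytes from control to P14, so its values at 24 h and 48 h rest on few cells. With at least 5% of UMIs from Alb, Apoa1 and Ttr the values were 3 regulators higher, 1716 genes higher, 1 regulator lower, 2414 genes lower for 24 h over the control and 1 regulator higher, 1600 genes higher, 2 regulators lower, 2842 genes lower for 48 h over the control. It also gave a reversed log2 ratio of E2f8 (-2.93) for 48 h over the control and 1201 genes higher for 96 h over the control. It also gave 1228 genes higher for P14 over the control and 0 regulators higher, 1981 genes higher, 3 regulators lower, 2887 genes lower for 48 h over 24 h. It also gave 2 regulators higher, 3591 genes higher, 1 regulator lower, 1067 genes lower for 96 h over 48 h and reversed log2 ratios of E2f1 (2.86), E2f8 (2.03) and Foxm1 (2.03) for 96 h over 48 h. It also gave 0 peaks in 48 h, 1 in 96 h and 3 in P14. Without hepatocytes with 3 markers of another class the values were 1054 genes lower for 48 h over the control and 0 regulators higher, 278 genes higher, 1 regulator lower, 455 genes lower for 48 h over 24 h. It also gave 751 genes higher for 96 h over 48 h. With hepatocytes of 10000 to 30000 UMIs, chosen after seeing the data, the values were 1 regulator higher (Foxm1) for P14 over the control and 0 regulators higher, 1 regulator lower for 48 h over 24 h. It also gave 2 peaks in P14. With CPM over all UMIs the values were 0 regulators higher for 96 h over the control. With TMM factors the values were 1167 genes higher, 697 genes lower for P14 over the control. With the mean of each cell's CPM the values were 0 regulators higher for 96 h over the control. After thinning to 5000 UMIs the values were 259 genes lower for 96 h over the control and 1 regulator higher (Foxm1) for P14 over the control. It also gave 0 regulators higher for 48 h over 24 h and 2 regulators lower (E2f8 and Mybl1) for 96 h over 48 h. It also gave 0 peaks in P14. With a pseudocount of 0.1 CPM the values were 1 regulator lower for 48 h over 24 h. With a pseudocount of 10 CPM the values were 2 regulators higher, 341 genes higher, 294 genes lower for 24 h over the control and 2 regulators higher, 349 genes higher, 331 genes lower for 48 h over the control. It also gave 0 regulators higher, 133 genes higher, 60 genes lower for 96 h over the control and 354 genes higher, 628 genes lower for P14 over the control. It also gave 0 regulators higher, 61 genes higher, 67 genes lower for 48 h over 24 h and 181 genes higher, 1 regulator lower, 143 genes lower for 96 h over 48 h. With no minimum CPM the values were 2 regulators higher for 96 h over the control and 1 regulator higher (Foxm1) for P14 over the control. Depth limits E2f7 and Mybl2, which had 7 and 3 UMIs in all control hepatocytes, and the control level of Foxm1, from 2 UMIs.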
